A study of Mus musculus with 4 samples.

Results

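The genes described here are 10 genes that mark, hold or signal to hematopoietic stem cells: Kit, Flt3, Csf1r, Tek, Cxcr4, Procr, Ly6a, Cd34, Thy1 and Fgd5. Their chromatin was read from ATAC-Seq, in which a transposase cuts accessible DNA and stretches rich in cuts are called as peaks. A member region was any merged peak that overlapped the body of 1 of these genes or the 10 kb on each side of it, with peaks of the 4 libraries merged when they shared at least 1 bp. This gave 206 member regions of 337776 regions on the autosomes and X. There were 2 control and 2 KO libraries of sorted mouse bone marrow cells, which the labels describe as long-term HSCs (ltHSC) and the study describes as HSPCs. Per the study, control mice were Cpt1a fl/fl and KO mice were Cpt1aΔ/Δ, made with Vav1-Cre, which acts across the hematopoietic lineage and not only in stem cells. All were on a C57BL/6, CD45.2 background, the labels call the controls WT, and the cells were cryopreserved after sorting. Per the study, mice were adults of either sex except where it says otherwise. The labels name no treatment, and whether animals were pooled for a library is not given in the sources used here. Nothing in the labels says that the libraries of a genotype came from separate mice, so any p-value measures the spread between these libraries, which may be technical. The study's sorting scheme for stem cells uses c-Kit and EPCR, the products of Kit and Procr, as positive markers. The gate used for these libraries is not given in the sources used here. Whether these 2 genes were part of how the cells were chosen is therefore not known.

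Blood stem cells live in the marrow next to stromal and endothelial cells that offer them membrane-bound and secreted ligands. Receptors on the stem cell read these signals: c-Kit binds stem cell factor, Flt3 binds Flt3 ligand, the Csf1r product binds M-CSF, Tie2 (encoded by Tek) binds angiopoietins, and Cxcr4 binds Cxcl12. Other proteins of the stem cell surface are known mainly as handles for sorting, such as EPCR (Procr), Sca-1 (Ly6a), CD34 and Thy1. Fgd5 is an exception to the group's name, since it encodes an intracellular exchange factor for a small GTPase. Its locus is used to mark stem cells in reporter mice. Open chromatin at a gene's start site or at distal elements is often, but not always, seen where the gene is expressed, and ATAC-Seq does not measure RNA or protein.

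The peak lists give no read counts, so the depth behind each list is unknown, and no interval from counting could be made. The lists held 240940 to 277594 summits each, all with a −log10 p of at least 2, and covered 48.9 to 52.9 Mb in the controls and 42.6 to 44.4 Mb in the KO libraries. A −log10 q of 5 or more was reached by 42.5% and 46.8% of control summits, and by 40.5% and 35.1% of KO summits. Strength is given below as a percentile: the rank of the strongest summit of a region, by −log10 p, among all summits of the same library, with 100 for the strongest. It compares regions within a library and is not an absolute amount of accessibility. The targeted gene, Cpt1a, had 29 regions under the same rule, of which 11 were shared by all 4 libraries, 2 were exclusive to control and 0 to KO, and its start site ranked at 94.6 and 94.1 in control, and 94.6 and 95.4 in KO. The segment deleted in KO was not placed among these regions, so these values do not check the labels. Markers of stem and early progenitor cells had a peak over the promoter in all 4 libraries for 6 of 8 genes, against 0 of 5 T cell genes, 2 of 3 B cell genes, 5 of 6 neutrophil and monocyte genes, 2 of 3 erythroid genes and 2 of 2 endothelial and stromal genes with a promoter in the table used. Across all genes with a promoter in that table, 47.8% had such a peak in all 4 libraries and 43.0% in none. Of the 5 T cell promoters, 3 had no peak in any library, while Lck lacked one in KO 1 alone and Cd3g in control 1 alone. Outside the T cell genes, a promoter open in all 4 libraries is therefore common for these other cell types' genes, on few genes per type. The part of such cell types in the results below was not tested. In bulk samples, fewer cells of a type and less accessible chromatin per cell cannot be told apart.

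The promoters of 7 of the 10 members were in the RefSeq table (GRCm38.p6, which is the assembly of mm10): Kit, Flt3, Procr, Tek, Cxcr4, Cd34 and Fgd5, but not Ly6a, Thy1 and Csf1r. Each entry runs from 250 bases before the transcription start to 50 bases after it. The 5 printed here are those between which the members differ most: the 2 strongest receptor start sites (Kit and Flt3), an AT-richer promoter that was open in every library (Cd34), the most CpG-rich one (Fgd5) and the weakest one (Tek). They are written 5′ to 3′ on the strand of the gene. Capitals mark any match, on either strand, to the letters AGATAA (a core bound by GATA factors), TGTGGT (RUNX), GGAAGT (ETS), CAGCTG (an E-box) or GGGCGG (SP1); these matches did not overlap in the 7 promoters.
Kit promoter, chr5:75574737-75575036, + strand: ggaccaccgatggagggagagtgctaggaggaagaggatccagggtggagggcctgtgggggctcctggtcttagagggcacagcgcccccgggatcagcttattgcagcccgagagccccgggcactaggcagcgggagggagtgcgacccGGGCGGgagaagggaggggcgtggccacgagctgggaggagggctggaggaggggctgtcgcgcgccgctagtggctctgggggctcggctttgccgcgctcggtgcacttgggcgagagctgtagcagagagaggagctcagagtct
Flt3 promoter, chr5:147400440-147400739, − strand: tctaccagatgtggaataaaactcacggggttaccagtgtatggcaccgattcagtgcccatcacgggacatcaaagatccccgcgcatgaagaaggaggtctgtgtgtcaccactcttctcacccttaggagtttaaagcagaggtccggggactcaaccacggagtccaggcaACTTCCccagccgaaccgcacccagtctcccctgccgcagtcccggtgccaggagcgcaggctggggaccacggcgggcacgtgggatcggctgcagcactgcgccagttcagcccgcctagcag
Cd34 promoter, chr1:194938571-194938870, + strand: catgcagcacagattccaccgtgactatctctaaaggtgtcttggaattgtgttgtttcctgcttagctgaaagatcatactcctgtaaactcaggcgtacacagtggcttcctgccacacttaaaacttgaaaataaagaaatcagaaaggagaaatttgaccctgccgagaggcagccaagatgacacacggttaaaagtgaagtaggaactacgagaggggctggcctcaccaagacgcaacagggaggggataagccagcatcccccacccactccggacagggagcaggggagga
Fgd5 promoter, chr6:91978715-91979014, + strand: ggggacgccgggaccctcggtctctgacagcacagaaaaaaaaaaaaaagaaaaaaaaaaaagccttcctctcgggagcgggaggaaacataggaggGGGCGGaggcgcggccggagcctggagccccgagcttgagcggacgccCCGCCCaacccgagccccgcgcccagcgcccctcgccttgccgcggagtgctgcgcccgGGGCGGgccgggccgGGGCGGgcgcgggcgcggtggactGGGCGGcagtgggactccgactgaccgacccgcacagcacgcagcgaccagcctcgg
Tek promoter, chr4:94739039-94739338, + strand: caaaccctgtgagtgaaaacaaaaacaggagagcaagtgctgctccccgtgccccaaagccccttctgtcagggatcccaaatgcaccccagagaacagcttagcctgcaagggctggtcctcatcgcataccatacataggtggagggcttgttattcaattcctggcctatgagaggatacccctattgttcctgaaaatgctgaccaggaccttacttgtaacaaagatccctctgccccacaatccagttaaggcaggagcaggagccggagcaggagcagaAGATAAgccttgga

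Kit and Fgd5 had promoters rich in G and C (69.0% and 71.3%, with 20 and 37 CpG), Flt3 was lower (61.0%, 18 CpG), and Cd34 and Tek had 50.0% and 52.0% with 7 and 3 CpG. Cxcr4 and Procr, not printed, had 59.3% and 58.3% with 20 and 13 CpG. The median over all 26794 promoters was 52.7% with 7 CpG, and it was 61.7% with 21 CpG for those with a peak in all 4 libraries against 47.0% with 3 CpG for the others. The start site of Cd34 was thus open in every library at a base composition below the median of all promoters. The SP1 letters occurred 5 times in Fgd5, 3 times in Cxcr4 and 1 time in Kit, and 36.2% of all promoters hold them. Flt3 had 1 ETS match (24.2% of all promoters), Procr 1 E-box match (16.2%) and Tek 1 GATA match (11.4%), while Cd34 had none of the 5 motifs. The RUNX letters, held by 16.8% of all promoters, were in none of the 7. Peaks covered all 300 bases of the Kit and Cxcr4 promoters in each library. For Flt3 the covered bases were 298 and 293 in control, and 295 and 293 in KO, and for Procr they were 245 and 136 in control, and 224 and 245 in KO. For Cd34 they were 166 and 176 in control, and 141 and 150 in KO, and for Fgd5 203 and 141 in control, and 246 and 211 in KO. The Tek promoter had 211 and 4 in control, and 0 and 86 in KO, which makes it the only member promoter of the 7 without a peak in some library.

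Of the 206 member regions, 112 were in 1 library, 35 were in 2 or 3 libraries across both genotypes, 46 were in all 4, 10 were in both controls and no KO library, and 3 were in both KO libraries and no control. The number held was 105 and 110 in control, and 94 and 101 in KO. Among the 94 regions in at least 2 libraries, 10.6% were exclusive to control, where 6.05% of all 137553 such regions were, and 3.19% were exclusive to KO, where 3.47% were. No test was made of these shares, and their order against all regions depended on the threshold. The control share stayed above that of all regions with lists of equal length (8.24% against 4.76%) and a flank of 5000 bp (11.0% against 6.05%). It also did so with the gene body alone (10.9% against 6.05%) and when peaks had to cover 0.5 or more of a region (22.9% against 11.3%). The order reversed at stricter thresholds of peak strength. With a −log10 q of at least 5, 2.94% of member regions in at least 2 libraries were exclusive to control against 7.02% of all, and with the 100000 strongest summits of each library 0% against 2.75%. The 46 shared regions made up 48.9% of these 94, compared with 58.4% over all regions, but 79.4% against 67.6% at that −log10 q and 84.8% against 72.1% with the strongest summits. With lists of equal length the share was 52.9% against 61.2%. The shared regions were also the strong ones, with a median percentile of 75.9 (72.4 over all regions of that kind) against 19.8 for those in 1 library (17.7 over all). The median width was 628.5 bp for shared regions and 92.5 bp for those in 1 library (526 and 97 bp over all regions). The gap was present over all regions too, so it is not particular to the members. Merging the peaks of several libraries can widen a region, and its part in this gap was not tested. Of the 46, 33 lay in a gene body and 13 outside it, and 8 touched another annotated gene as well. Whether a region lies in an exon, an intron or a UTR was not analysed here.

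**Figure D1:**
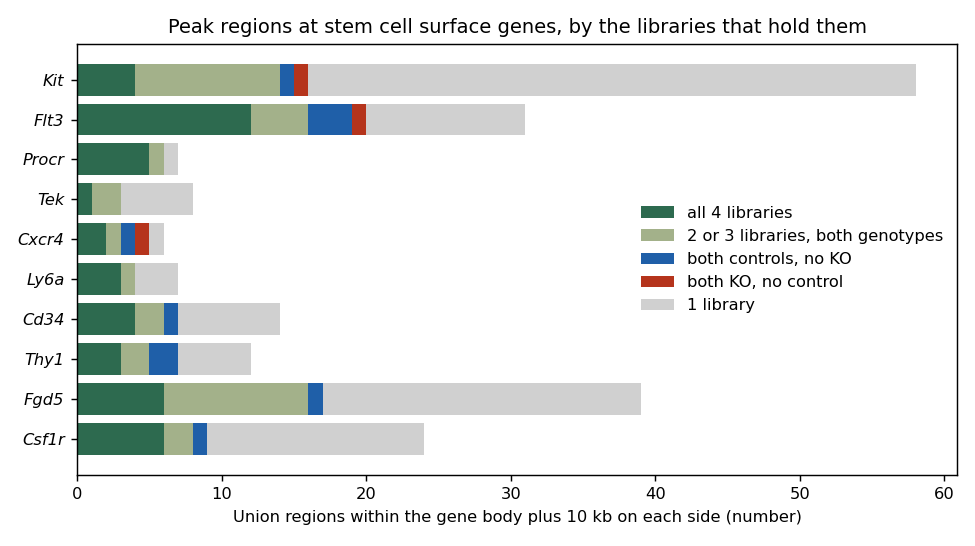
Number of merged peak regions (x axis) in the window of each gene (rows), split by which of the 4 libraries held a peak; Flt3 has the most regions shared by all 4 libraries (12), and Kit the most regions in a single library (42 of 58).

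The receptors of the Kit family, Kit, Flt3 and Csf1r, are tyrosine kinases that carry the signals of stem cell factor, Flt3 ligand and M-CSF. Kit (chr5:75574987-75656722) had 58 regions in its 101.7 kb window, of which 4 were in all 4 libraries and 42 in 1. The region over its start site (chr5:75574622-75576178) ranked at 97.4 in control 1, 97.8 in control 2, 97.9 in KO 1 and 97.8 in KO 2. Its summit positions lay within 8 bp of each other, and the authors' fold over background there was 14.6 and 16.05 in control, and 16.2 and 14.3 in KO. The libraries of the 2 genotypes overlapped at this site. The other shared Kit regions, all inside the gene, were weaker and more variable. At 65.8 kb into the gene (chr5:75640470-75641112) the percentile was 80.8 in control 1, 82.2 in control 2, 66.2 in KO 1 and 71.7 in KO 2, so both controls ranked above both KO libraries. At 14.7 kb (chr5:75589472-75589905) it was 53.6 and 37.4 in control, and 61.4 and 62.8 in KO, with both KO libraries above both controls. At 60.5 kb it was 38.2 and 58.6 in control, and 47.4 and 1.41 in KO, with KO 2 far below the rest.

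Flt3 (chr5:147330741-147400489, on the minus strand) had the most shared regions of the 10 genes, 12 of 31 in a window of 89.7 kb. The start-site region (chr5:147399897-147400737), which also touches Gm26597, was the strongest of any member and ranked at 98.6 in control 1, 97.6 in control 2, 98.8 in KO 1 and 97.3 in KO 2. Inside the gene, a region 59.3 kb downstream of the start (chr5:147340646-147341711) ranked at 95.5 and 95.3 in control, and 94.8 and 94.5 in KO. A region at 34.0 kb ranked at 92.4 and 94.9 in control, and 86.0 and 91.6 in KO, and regions at 7.8 kb and 37.2 kb and beyond the end of the gene at 76.9 kb ranked between 88.0 and 92.7 in every library. Flt3 is best known as a receptor of multipotent and lymphoid-primed progenitors, and long-term stem cells are usually described as low for its protein. These lists held strong and shared peaks across the gene in every library. At 11.4 kb the percentile was 61.1 and 64.6 in control, and 57.5 and 14.1 in KO, with KO 2 apart from the others.

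Csf1r (chr18:61105572-61131139), the M-CSF receptor of monocytes and macrophages, had 24 regions in 45.6 kb, with 6 in all 4 libraries and 15 in 1. The table used gives no strand for Csf1r, so its distances are counted from the gene's first base on the chromosome. The strongest region, at 2.8 kb (chr18:61107666-61109169), ranked at 96.5 in control 1, 95.2 in control 2, 94.2 in KO 1 and 89.6 in KO 2. Both controls were above both KO libraries, and the authors' fold was 15.3 and 12.8 in control, and 12.1 and 7.92 in KO. A weaker region at 13.3 kb (chr18:61118774-61119028) had the opposite order, at 41.5 and 41.6 in control, and 63.0 and 69.7 in KO. Of the other 4 shared regions, the one near the first base (0.3 kb) was at 63.0 and 69.9 in control, and 60.7 and 52.5 in KO, and the one at 26.7 kb was at 52.4 and 51.6 in control, and 29.3 and 49.9 in KO, again with both controls above. The genotypes overlapped at the remaining 2, and 2 of the 4 also touch Hmgxb3.

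Tek (chr4:94739086-94874976), the angiopoietin receptor of endothelial cells and of a subset of stem cells, was the least open of the 10. In the widest window, 155.9 kb, it had 8 regions, of which 5 were in 1 library. The start-site region (chr4:94739073-94739749) was the only Tek region in all 4 libraries and ranked at 58.3 in control 1, 45.3 in control 2, 24.8 in KO 1 and 53.6 in KO 2. The genotypes overlapped, and the KO libraries differed from each other by more than the controls did. Cxcr4 (chr1:128588199-128592299, minus strand), the receptor that holds stem cells in the marrow through Cxcl12, was a compact contrast to Tek. Its start-site region (chr1:128590717-128592757), 2041 bp wide, ranked at 96.0 in control 1, 96.2 in control 2, 96.0 in KO 1 and 96.7 in KO 2. These 4 values lie within 1 percentile of each other. The region just upstream of it, at 0.9 kb before the start, was variable, at 71.7 and 41.9 in control, and 28.9 and 57.2 in KO.

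Procr (chr2:155751125-155755478) encodes EPCR, which binds protein C and marks stem cells that stay in the marrow. It had 7 regions, 5 of them in all 4 libraries, and in contrast to Kit and Flt3 its start site was the weakest of the 5. The start-site region (chr2:155751022-155751695) ranked at 71.5 in control 1, 63.7 in control 2, 67.8 in KO 1 and 70.2 in KO 2. The upstream region, 8.2 kb before the start (chr2:155742273-155743738), ranked at 92.9 and 86.8 in control, and 91.5 and 90.2 in KO. A region at 4.6 kb, just past the end of the gene, ranked at 92.1 and 87.4 in control, and 89.8 and 90.5 in KO, and the next at 5.9 kb ranked between 84.4 and 89.2. The last, at 13.9 kb (chr2:155764696-155765457), ranked at 88.5 and 93.5 in control, and 85.9 and 85.0 in KO. There the authors' fold was 11.96 and 18.1 in control, and 10.1 and 8.94 in KO, so both controls were above both KO libraries and control 2 stood above control 1.

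The surface glycoproteins used as sorting handles were open to different degrees. Ly6a (chr15:74994877-74998031), which encodes Sca-1, had its strongest region 5.8 kb before its first base (chr15:74988289-74989858), at 93.5 and 88.7 in control, and 88.8 and 91.5 in KO. This region also touches Gm28068 and Gm8000. A region 2.0 kb before the first base was at 76.6 and 75.2 in control, and 71.0 and 60.8 in KO, with both controls above both KO libraries. Cd34 (chr1:194938821-194961292), a sialomucin of progenitor cells, had 4 shared regions of 14. The start-site region (chr1:194938695-194939333) ranked at 90.6 in control 1, 92.5 in control 2, 91.9 in KO 1 and 91.1 in KO 2, and the genotypes overlapped. Regions at 4.9 kb and 23.5 kb ranked at 92.7 and 88.2 in control, and 90.9 and 86.6 in KO, and at 84.2 and 84.0 in control, and 89.3 and 70.2 in KO. Thy1 (chr9:44043384-44048579), a glycoprotein of T cells that stem cells carry at low level, had no shared region above 75.9 in any library. Its strongest region, 0.5 kb from the first base (chr9:44043665-44044085), ranked at 75.9 and 74.7 in control, and 63.9 and 73.4 in KO. The controls were both above the KO libraries, but KO 2 lay closer to control 2 than to KO 1.

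Fgd5 (chr6:91978827-92076005) had 39 regions in 117.2 kb, 6 of them in all 4 libraries. Its strongest region was not the start site but an element 88.5 kb into the gene (chr6:92067083-92067805), which ranked at 94.5 in control 1, 93.5 in control 2, 93.3 in KO 1 and 90.2 in KO 2. The summits of the 4 libraries there fell within 4 bp. The start-site region (chr6:91978769-91980053) ranked lower, at 76.2 in control 1, 72.3 in control 2, 62.8 in KO 1 and 66.6 in KO 2. At both regions the controls were above the KO libraries, with KO 1 within 1 percentile of control 2 at the distal element. At the start-site region, though, the ranked summits lay up to 1003 bp apart. Among peaks touching the promoter itself, the strongest ranked at 27.6 and 72.3 in control, and 62.8 and 58.0 in KO, so the genotypes overlapped there. A region 6.4 kb upstream ranked at 88.1 and 87.3 in control, and 88.3 and 82.4 in KO, and a region 34.0 kb into the gene at 82.9 and 78.8 in control, and 76.0 and 78.4 in KO. A weaker region at 79.0 kb was at 49.4 and 64.9 in control, and 36.0 and 33.1 in KO.

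**Figure D2:**
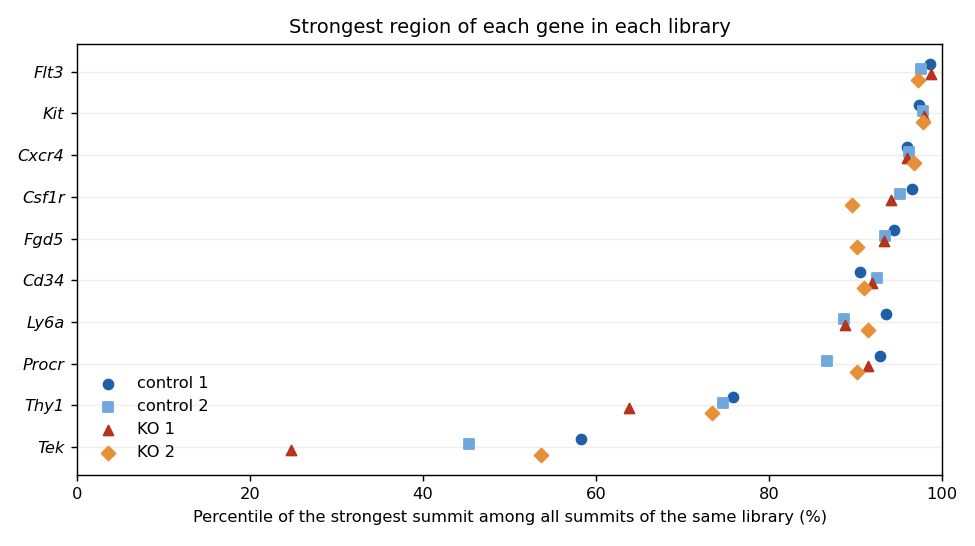
Percentile (x axis, in %) of the strongest shared region of each gene (rows) in each of the 4 libraries (points); the start sites of Flt3, Kit and Cxcr4 lie between 96.0 and 98.8 in every library, and Tek spreads from 24.8 to 58.3.

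**Figure D3:**
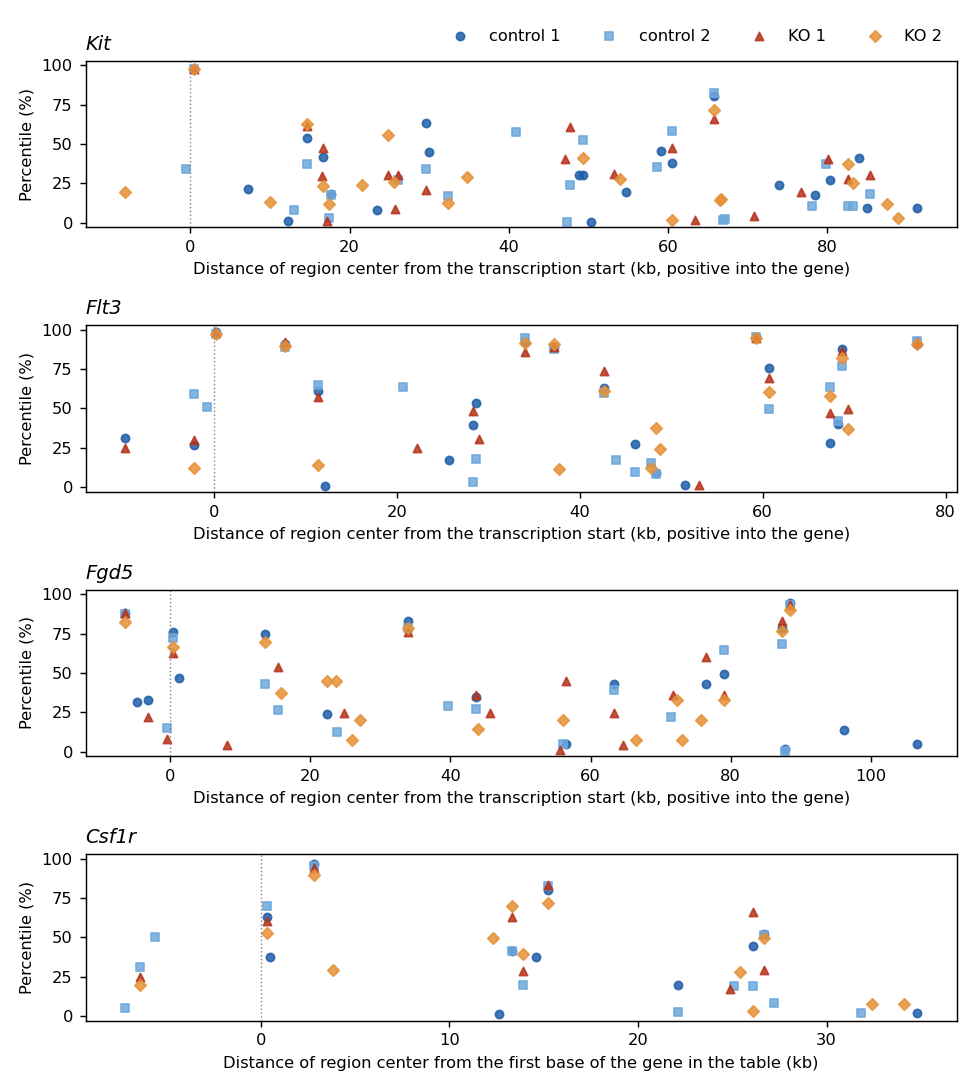
Percentile (y axis, in %) of every region of Kit, Flt3, Fgd5 and Csf1r against its distance in kb from the transcription start, or from the first base for Csf1r (x axis), with a point for each library that held it; regions with points of all 4 libraries are few and mostly high, and regions with 1 point are mostly low.

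The order of the strongest regions by mean percentile was Flt3, Kit, Cxcr4, Csf1r, Fgd5, Cd34, Ly6a, Procr, Thy1 and Tek. Flt3 and Kit overlapped in their values over libraries, as did each neighbouring pair from Cxcr4 to Procr, while Thy1 (63.9 to 75.9) was below all of these and above Tek (24.8 to 58.3). Kit (97.4 to 97.9) was above Cxcr4 (96.0 to 96.7) in each library. The median of the strongest regions over the 10 genes was 94.0 and 93.0 in control, and 92.6 and 90.6 in KO, a difference of −1.88 percentile points (KO minus control, n = 2 libraries each). It was −2.86 without KO 1 and −0.901 without KO 2. The exact two-sided permutation test gave p = 0.333, the smallest that 2 libraries against 2 allow, so it cannot pass 0.05.

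A second reading of each gene was its open share, the percentage of bases in the window that lay under peaks. It is per length, but the flanks add the same 10 kb on each side to short and long genes, so the order of genes depends on the flank. Averaged over the 4 libraries it was largest at Procr, at 12.8% and 15.9% in control, and 11.2% and 11.4% in KO. Next came Cxcr4, at 10.1% and 9.90% in control, and 10.5% and 8.46% in KO, and Ly6a, at 7.78% and 9.77% in control, and 8.03% and 7.27% in KO. Tek was lowest, at 0.671% and 0.385% in control, and 0.251% and 0.416% in KO. The median over 49550 genes was 2.96% and 2.63% in control, and 2.38% and 2.44% in KO, so 9 of the 10 genes were above the median of all genes in every library. Ranked among all genes of the same library, the mean percentile of the open share was 97.8 for Procr, 92.6 for Cxcr4, 87.3 for Ly6a, 85.2 for Flt3, 82.4 for Csf1r, 77.4 for Thy1, 69.9 for Kit, 69.2 for Cd34, 66.1 for Fgd5 and 30.3 for Tek. Procr, Cxcr4 and Ly6a have the shortest windows. With a flank of 5000 bp Cxcr4 led at 97.7, Procr had 87.2, and Ly6a had 59.8, above Tek alone (34.1). Kit, with a start site near the top of each list, had 70.9 with that flank.

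**Figure D4:**
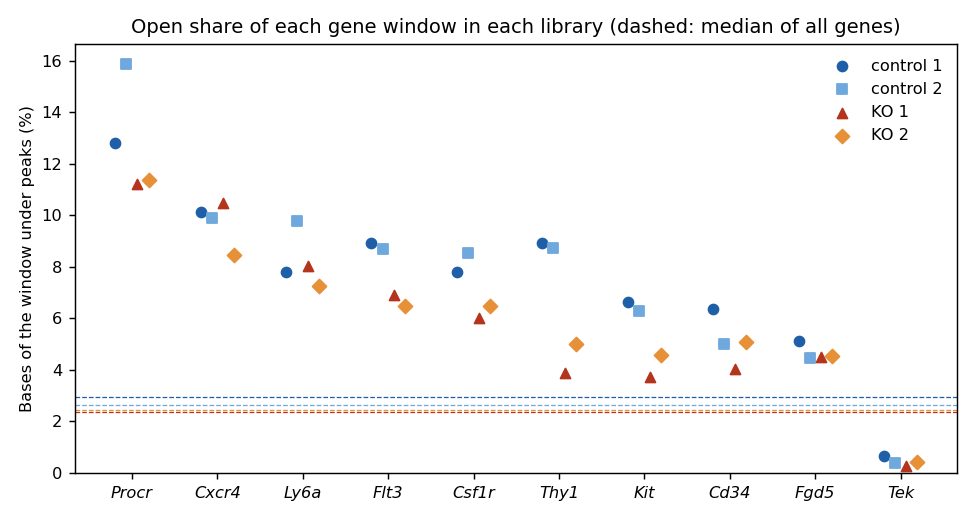
Percentage of bases of each gene window under peaks (y axis) in each library (points), with the median of all genes in each library as a dashed line; Thy1 shows the widest gap between control and KO points, and Tek lies under the median of all genes.

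Both controls exceeded both KO libraries in open share at Kit, Flt3, Procr, Thy1 and Csf1r, and the libraries overlapped at the other 5. Of 40237 genes with a peak in at least 1 library, 41.9% had this order and 6.41% the opposite one, so 5 of 10 genes is near what the whole lists show. By percentile among all genes of the library, which allows for the smaller extent of the KO lists, both controls were above both KO libraries at Kit, Flt3, Tek, Thy1 and Csf1r (19% of all such genes) and both KO libraries were above both controls at Fgd5 (18%), while Procr overlapped. Thy1 had 8.95% and 8.75% in control, and 3.90% and 5.02% in KO, and its percentile among all genes was 87.2 and 87.3 in control, and 63.6 and 71.3 in KO. Kit had 6.64% and 6.28% in control, and 3.71% and 4.59% in KO, with percentiles of 75.2 and 74.8 in control, and 62.0 and 67.9 in KO. Flt3 had 8.91% and 8.68% in control, and 6.92% and 6.49% in KO. Over the 10 genes the median percentile was 81.7 and 86.7 in control, and 74.4 and 76.5 in KO, a difference of −8.81 points (SD 3.58 in control and 1.49 in KO, n = 2 each; exact two-sided permutation p = 0.333, the smallest possible). With peaks of a −log10 q of at least 5 alone this difference was −0.419. At that threshold Thy1 ranked at 46.2 and 74.4 in control, and 55.1 and 53.9 in KO, so that the genotypes overlapped. Kit then ranked at 57.6 and 58.6 in control, and 59.7 and 59.1 in KO, so that both KO libraries were above both controls.

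The 10 regions exclusive to control were spread over 7 genes: 3 in Flt3, 2 in Thy1 and 1 each in Kit, Cxcr4, Cd34, Fgd5 and Csf1r. The 3 exclusive to KO were in Kit, Flt3 and Cxcr4. They were weak peaks: averaged over the libraries that held each, the median percentile was 21.1 (range 0.96 to 49.1) for the control set and 43.0 (range 28.0 to 43.5) for the KO set. The strongest only in control was in Cd34, 14.3 kb into the gene (chr1:194953062-194953198), at 66.9 and 31.2. In Flt3, regions at 28.7, 46.1 and 68.2 kb into the gene were only in control, at 53.6 and 17.7, 27.3 and 9.34, and 40.2 and 42.1 in control 1 and control 2. Those of Thy1 were 2.2 kb before the first base (46.5 and 1.37) and 10.8 kb after it (24.1 and 31.2). Those of Kit at 17.6 kb (18.1 and 17.6) and Cxcr4 at 6.3 kb past the start (16.7 and 14.8) were weak in both controls. The region of Fgd5 at 87.7 kb (1.38 and 0.547), which lies next to the strong distal element, and that of Csf1r at 22.1 kb (19.5 and 2.42) were among the weakest. Only in KO were a Kit region at 24.8 kb (chr5:75599734-75599869), at 30.4 and 55.7 in KO 1 and KO 2, a Flt3 region near the end of the gene (chr5:147331079-147331276), at 50.0 and 37.0, and a Cxcr4 region 9.9 kb before the start (chr1:128602045-128602260), at 41.8 and 14.2. When presence asked for a −log10 q of at least 5 and absence for no peak of any score, 0 member regions were exclusive to either genotype. Over all regions 0.139% were then exclusive to control and 0.0141% to KO, so the members' 0 of 34 does not set them apart.

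At the 46 shared regions the ranks of any 2 libraries were alike, with a Spearman correlation over regions of 0.919 between the controls, 0.895 between the KO libraries and 0.865 to 0.926 between genotypes. This is a description over regions that share libraries and are not independent. Within a merged region the strongest summits of the libraries could lie apart, so ranks and folds there may compare different sites. The summits spread over 834 bp in the Flt3 region at 67.4 kb, 620 bp in Fgd5 at 34.0 kb and 607 bp in the strongest Ly6a region. At the Kit start site they lay within 8 bp. The percentile was lower in both KO libraries than in both controls at 14 of 46 regions (30.4%), where 22.6% of all 80271 shared regions were, and higher in both KO libraries at 2 (4.35%), where 15.4% of all regions were. The other 30 overlapped. The 2 that were higher in KO were the regions of Kit at 14.7 kb and Csf1r at 13.3 kb. The median difference was −1.96 percentile points over the members and −0.495 over all shared regions. The median level of the 46 was 79.2 and 76.4 in control, and 74.8 and 71.9 in KO, against 74.9, 74.1, 74.4 and 72.5 for all shared regions in the same order of libraries.

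A linear model (limma) tested KO against control. It used the log2 of the authors' fold at each library's strongest summit in a region, quantile-normalized over the 80271 shared regions. No region passed an adjusted p of 0.05 (0% in each direction), members included; at an unadjusted p under 0.05 there were 2856 regions higher in KO (3.56%) and 3269 lower (4.07%). Of the 46 member regions, 3 had an unadjusted p under 0.05, all with a lower estimate in KO. Procr at 13.9 kb had a log2 difference of −0.56 (SE 0.19, limma adjusted p = 0.55). Csf1r at 2.8 kb had −0.43 (SE 0.19, limma adjusted p = 0.62), and Kit at 65.8 kb had −0.53 (SE 0.25, limma adjusted p = 0.65). The next were Csf1r at 13.3 kb, at 0.59 (SE 0.29, adjusted p = 0.66 by limma), and the distal element of Fgd5, at −0.30 (SE 0.15, adjusted p = 0.68 by limma). None of these 5 differences passed the threshold. In simulated data at this number of libraries, none of the smaller planted changes were called, although they were larger than any member's difference. Most of the larger planted changes were missed as well. A p above the threshold therefore does not show that the genotypes are alike at a region. Over the members the log2 differences ran from −0.56 to 0.59 with a median of −0.06 (0.00 over all regions), and 20 of 46 were higher in KO. With the folds centred on their median instead of quantile-normalized, the regions at an unadjusted p under 0.05 split into 4065 higher and 2397 lower, so the direction over all regions depends on the scaling.

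**Figure D5:**
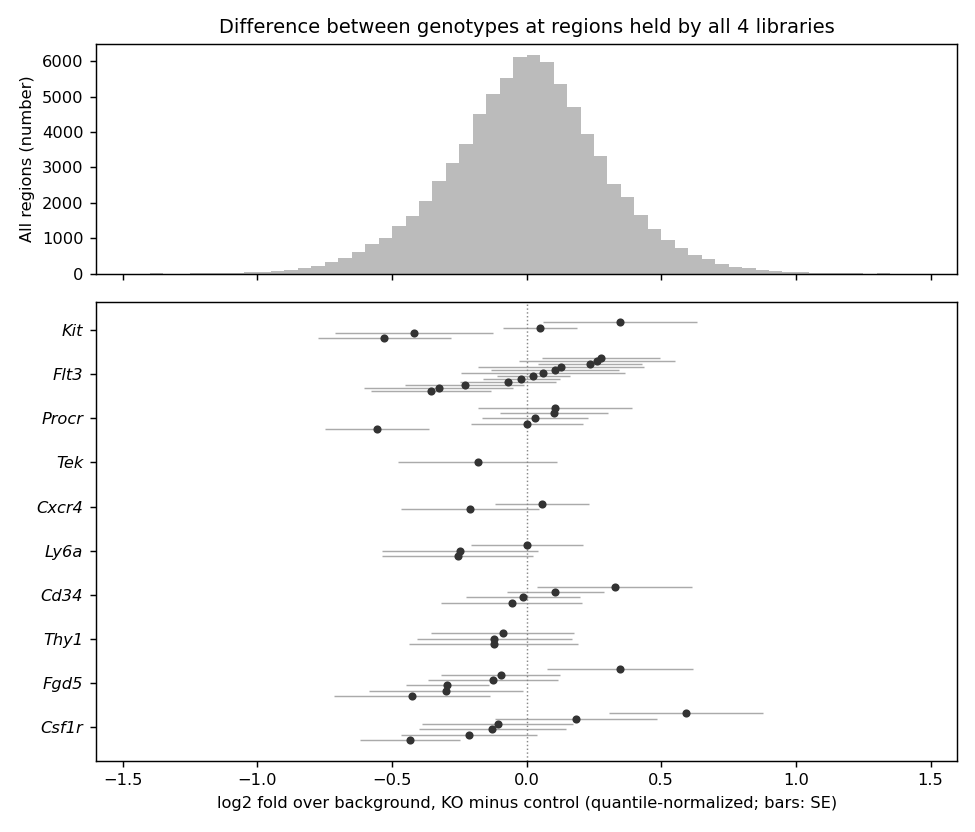
Top, number of shared regions (y axis) by their log2 difference in the authors' fold, KO minus control; bottom, the 46 member regions by gene, with points for the estimate and bars for its SE. The members lie between −0.56 and 0.59.

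The members were set beside other genes of the same setting. In a list of 28 other receptors and adhesion molecules of stem and progenitor cells, the median open-share percentile over the libraries was 77.9, next to 79.9 for the members. By library the members were above this list in control (81.7 and 86.7, against 77.4 and 77.3) and below it in KO (74.4 and 76.5, against 79.5 and 80.2), and this difference was not tested. Fcgr3 (99.7), Itga2b (93.2) and Esam (92.0) were the highest, and Il7r (37.1), Bmpr1a (44.7) and Itga4 (50.4) the lowest. Of its 247 regions in at least 2 libraries, 16 (6.48%) were exclusive to control and 8 (3.24%) to KO. The promoter of 20 of its 22 genes with an entry had a peak in all 4 libraries, as did 6 of the 7 members. The 18 ligands, which bind receptors such as these and are made largely by niche cells, had a median of 62.4. Flt3l (97.4), Thpo (96.4) and Dll4 (91.6) were the highest, and Vcam1 (29.0), Ptn (35.8) and Kitl (40.6), the gene of stem cell factor, the lowest. Of 124 ligand regions in at least 2 libraries, 13 (10.5%) were exclusive to control and 8 (6.45%) to KO. By pairs, Kitl had 40.6 and Kit 69.9, Cxcl12 had 65.4 and Cxcr4 92.6, and Proc had 67.6 and Procr 97.8. Csf1 (80.7) and Il34 (59.4) stood beside 82.4 for Csf1r, whereas Flt3l (97.4) was above Flt3 (85.2), and Angpt1 (48.4) and Angpt2 (53.8) were above Tek (30.3).

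The median open-share percentile was 84.8 for the stem and early progenitor markers, with Hoxa9 (99.4), Tal1 (97.0) and Gata2 (90.3) highest and Mecom (44.9), Erg (71.1) and Hlf (83.4) lowest. It was 73.0 for T cell, 71.0 for B cell, 65.8 for neutrophil and monocyte, 67.7 for erythroid and 60.9 for endothelial and stromal markers. Of regions in at least 2 libraries, the T cell markers had 0 of 26 exclusive to either genotype, and the erythroid markers had 6 of 31 exclusive to control and 1 to KO. Among the T cell genes, Lck (84.9), Cd3g (83.2) and Cd4 (81.2) were highest and Cd8a (23.1), Cd3e (51.6) and Cd3d (64.7) lowest. Klf1, an erythroid transcription factor, was the highest erythroid gene (97.5), and Ly6g, a neutrophil surface protein, the lowest of its list (22.1). Neither Klf1 nor Hoxa9 had a peak over its promoter in any library, so their open share came from other parts of the window.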

How the data were processed

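ATAC-Seq peak lists of 2 control and 2 KO libraries were analyzed. The submitters' processing notes name Bowtie2, MACS2 and mm10. Peaks were called by the authors per library and deposited with a fold over background (a ratio), a −log10 p and a −log10 q; read depth is unknown. The peak score the authors deposited was not used. Some summits (253 to 492 per library) were chromosome positions instead of offsets. The study's differential test needs reads and was not run. Per the study, that test called more peaks higher than lower in KO.

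Intervals on the autosomes and X were merged at 1 bp (Python 3.11.15, numpy 2.4.6, pandas 2.3.3) and matched to genes ± 10 kb (RefSeq, GRCm38.p6). The fold was tested with limma 3.58.1 (R 4.3.3) and Benjamini-Hochberg adjustment, and exact permutation tests used scipy 1.17.1. The limma fit was also run on data simulated from the means and spreads of these libraries, where it called few of the planted changes and nothing else. Named by rule were each member's strongest shared region, start-site region and regions of a single genotype, the 5 smallest p, and up to 3 of the highest and lowest genes of a list. Other regions were named after their values were seen. Members and lists were chosen with earlier results of these data known. Alternatives were other thresholds, overlaps, flanks, rankings and scalings, and each library left out. Figures used matplotlib 3.10.9.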

Additional observations from a re-analysis of the deposited data

How the results depend on the processing

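The 46 member regions in all 4 libraries became 27 with a −log10 q of at least 5, 28 with the 100000 strongest summits of each library, 27 when peaks had to cover 0.5 or more of a region, and 27 when presence needed that −log10 q and absence no peak at all (chosen after seeing the data). The 10 regions only in control became 1, 0, 16 and 0 under the same settings, and the 3 only in KO became 1, 2, 2 and 0. Of regions in at least 2 libraries, the control counts were 2.94%, 0%, 22.9% and 0%, against 7.02%, 2.75%, 11.3% and 0.139% over all regions. The KO counts were 2.94%, 6.06%, 2.86% and 0%, against 0.807%, 3.11%, 3.89% and 0.0141%. Without each library in turn 50 to 55 were in all libraries left. A genotype left with 1 library has more regions to itself: 38 and 41 were exclusive to control without control 1 and control 2 (14 and 18 without KO 1 and KO 2), and 35 and 27 were exclusive to KO without KO 1 and KO 2 (4 and 8 without control 1 and control 2). Of regions in at least 2 libraries, the 14, 18, 4 and 8 were 17.3%, 21.2%, 5.13% and 10.5%. Over all regions these shares were 14.5%, 11.4%, 7.45% and 7.16%. Set against the number of such regions, the 38, 41, 35 and 27 were 48.7%, 53.9%, 43.2% and 31.8%. Over all regions these ratios were 38.4%, 52.7%, 50.8% and 48.9%. They are not shares, since regions held by a lone library are not in at least 2. The median open-share difference of −8.81 became −0.419 with a −log10 q of at least 5, −3.21 with the 100000 strongest summits, −3.42 with a flank of 5000 bp and −11.6 when ranked among protein-coding genes (chosen after seeing the data), and ran from −11.3 to −6.27 without each library. The difference of the strongest regions, −1.88, ran from −2.86 without KO 1 to −0.901 without KO 2. For single genes, 15 of 40 alternatives that kept all libraries moved an open-share difference beyond the spread of the libraries, and 0 of 20 that of a strongest region. Leaving out a library moved 0 of 40 for each, but with 2 libraries per genotype it cannot exceed that spread. The sign then stayed the same in 34 of 40 for the open share and in 31 of 40 for the strongest region. The cause was not tested for any of these.

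Over all regions the model called 0, and 1 with median centring and 1 with normal scores of the percentile. Both genotypes carry replicates 1 and 2, but the labels give these numbers no shared litter or day. The deviations of control 1 and KO 1 from their group means correlated at r = 0.00467 over 80271 regions, so these regions showed no pairing by number. This value cannot tell whether libraries of the same number were prepared together. With the replicate block 65 regions were called, 23 higher and 42 lower in KO, none of them a member, and the smallest adjusted p of a member was 0.24 (limma); 0 members were called in any of the 10 fits. The 3 members with an unadjusted p under 0.05 (6.52% of 46, against 7.63% of all regions) became 11 when regions in at least 2 libraries were fitted (11.7%, against 10.5%). Without control 1, control 2, KO 1 and KO 2 they were 1, 1, 4 and 2 (2.17%, 2.17%, 8.70% and 4.35%, against 4.49%, 5.05%, 8.44% and 6.52%), where a lone library was assumed to vary like the other group. Depth, which is unknown, limits what the absence of a peak shows.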
